A study of Mus musculus with 3 samples.

Results

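CCGG sites in CpG-rich promoters were the autosomal positions at which a methylated CCGG motif was read within 1 kb of a transcription start site that sits in CpG-rich sequence of the mouse genome (GRCm38). CpG-rich means here that the 500 bp centred on the start site held over 55% G and C and over 0.75 of the CpGs that chance would place there (the CpG ratio). There were 23614 such sites among the 969545 autosomal CCGG sites listed in any library, or 2.44%. They lay on 114023 CCGG motifs of the reference, so 20.7% of the motifs in these promoters were listed at least once. Of the 9724 genes with such a start site and a motif near it, 8068 had at least 1 listed site and 7026 of these were protein-coding.

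The DNA came from E14Tg2A mouse embryonic stem cells (ESCs), an established line that serves as wild type here, and methylation was measured by MethylRAD sequencing. The enzyme FspEI cuts at a fixed distance from a methylated cytosine that follows another cytosine. Cuts on both sides of a CmCGG motif release a short fragment that holds the motif, and these fragments are isolated and sequenced. The study states that the enzyme also recognizes hydroxymethylated cytosine. The undifferentiated cells were kept in leukemia inhibitory factor (LIF). The untreated differentiated cells were collected at day 7 after LIF withdrawal and retinoic acid addition, and the pargyline-treated cells were differentiated in the same way with pargyline, an inhibitor of the histone demethylase LSD1. Each condition was 1 library of 1 cell line, so differences between conditions had no replicate check, and no p-value was computed. Intervals below are 95% Wilson intervals, or intervals of a ratio of counts. They cover at most counting error and take each motif or read as a separate draw. Copies made by PCR look like separate molecules in these counts, and neighbouring motifs can share a fragment. The intervals can therefore be too narrow.

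CpG islands are stretches of DNA that have kept their CpG dinucleotides because they stay unmethylated in the germ line, and most mouse promoters of broadly expressed genes lie in them. Methylation of such an island is the exception. It is known at the control regions of imprinted genes, where the maternal copy is methylated in the oocyte, and at promoters of germline genes, which DNMT3A and DNMT3B methylate as the embryo implants. Promoters of developmental regulators carry Polycomb marks in ESCs and are usually free of methylation.

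The sites on which the results below turn are shown here as 30 bases of the reference plus strand with the motif in capitals. The germline and imprinted sites are shown because they were deep in every library. The next group is shown because its read counts lay far apart between libraries, with the shown site missing from at least 1 library at all of these genes but Usp33 and Ganab, and Fgf4 and Sall4 because they are pluripotency genes. The number after each region is the distance from the start site of the gene in bp, negative upstream.
Tdrd1, chr19:56825681-56825710, -514: gttcacggccaacCCGGtcaacattgcaag
Sycp1, chr3:102936182-102936211, -96: cccttcccacgtgCCGGgttctctaccaag
D1Pas1, chr1:186968186-186968215, 784: agagtgttggcagCCGGggaggtagaagtg
Plagl1, chr10:13091174-13091203, 353: gcagcaaaaggctCCGGgtcgatccaaatg
Mest, chr6:30737437-30737466, -599: caaaggaagtgtaCCGGtgccaccgtggtg
Nnat, chr2:157560297-157560326, 181: cccgaaacgcgccCCGGgaccccttaatcc
Alpl, chr4:137796867-137796896, -497: ccccaggacctgcCCGGggcagaccacttc
Nucks1, chr1:131909556-131909585, -964: tgggatttgaactCCGGgacctctggaaga
Tmem41a, chr16:21948140-21948169, -602: aggggcagggtagCCGGgtagtgagaatga
Usp33, chr3:152345641-152345670, -823: agtgctggctttaCCGGggtacaccaccat
Ganab, chr19:8897215-8897244, -872: ttggtaggcgcttCCGGgaacaacctctgc
Lhx2, chr2:38339908-38339937, 641: gaacttgcaagggCCGGtcagggatatgag
Sfmbt2, chr2:10371532-10371561, -890: ttgcgcccaaggcCCGGgaagctcattagc
Ect2, chr3:27153981-27154010, -117: gtgtgtttcaaatCCGGtaaacggctggag
Fgf4, chr7:144862277-144862306, 905: tcggagtggccagCCGGttcttcgtggcca
Sall4, chr2:168767035-168767064, -20: gcgcattggggcgCCGGgaagagccctggt
The D1Pas1, Ganab and Fgf4 sites are in coding exons and the Sall4 site in a UTR. The Ganab site lies upstream of that gene's CpG-rich start sites, so its exon is of another transcript or gene. Those of Plagl1, Mest, Nnat, Lhx2 and Sfmbt2 are in introns, and the Tdrd1, Sycp1, Alpl, Nucks1, Tmem41a, Usp33 and Ect2 sites lie upstream or between genes. As an exact copy, the 32 bases around each of these motifs occur at 1 position among the autosomal CCGG motifs. Near copies were not counted.

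The libraries held 30438677, 35285676 and 24776897 CCGG reads on the autosomes for undifferentiated, untreated differentiated and pargyline-treated differentiated cells, in that order here and below. A site is listed with at least 5 reads, so an absent site had at most 4 reads. CCAGG motifs in the same promoters, where the methylated cytosine is not in a CpG, were listed at 5.05%, 5.05% and 22.1% of 40348 motifs. All 2037 of those listed in the undifferentiated and in the untreated differentiated library had equal counts in both, so these counts are not separate measurements. Without a separate untreated value, a CCAGG difference with pargyline cannot be told apart from one with differentiation. The study itself reported the most CCAGG and CCTGG sites in untreated differentiated cells. The part of the CCAGG difference in the CCGG results given below was not tested.

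Few motifs in CpG-rich promoters were listed, and more were listed in the differentiated cells. The undifferentiated library listed 7719 motifs, or 6.77% (6.63 to 6.92). The untreated differentiated library listed 14379, or 12.6% (12.4 to 12.8). The pargyline library listed 17626, or 15.5% (15.2 to 15.7). Over all autosomal CCGG motifs the shares were 54.4%, 55.1% and 55.7%. In other promoters, those within 1 kb of a start site but of no CpG-rich one, they were 44.3%, 48.1% and 52.3%, and outside promoters 59.4%, 59.4% and 59.5%. The shares of both kinds of promoter thus rose from library to library, while those outside promoters stayed within 59.4% and 59.5%.

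The reads at these sites were fewer than elsewhere. The median listed site had 11, 9 and 8 reads in the 3 libraries, against 27, 31 and 24 outside promoters. Under 10 reads were counted at 44.7%, 54.9% and 57.3% of the listed sites, against 14.7%, 14.5% and 17.4% outside promoters, so many members lay just above the listing minimum. Sites in CpG-rich promoters took 0.494%, 0.706% and 1.0% of the CCGG reads, leaving out sites over 10000 reads. Scaled to 1000000 CCGG reads a library, that was 4940, 7062 and 10010 reads. A cluster of ribosomal RNA-like noncoding genes on chromosome 17 (Gm26917, Gm42418 and AY036118) and the gene Sfi1 held 4.78%, 10.2% and 8.55% of the members' reads. Without these genes the values were 4704, 6344 and 9155 scaled reads, in the same order.

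Listing fell steeply toward the start site in every library. Under 100 bp it was 1.26% (1.14 to 1.39) of 29714 motifs in undifferentiated cells, 6.63% (6.35 to 6.91) in untreated and 7.33% (7.04 to 7.63) in pargyline-treated differentiated cells. From 100 to under 250 bp the shares were 2.41%, 8.45% and 10.7%, and from 250 to under 500 bp they were 5.95%, 12.5% and 16%. From 500 to under 750 bp they were 14.7%, 20.4% and 25.5%, and from 750 to 1000 bp they reached 29.1%, 33.9% and 39.6% of 8889 motifs. The undifferentiated and differentiated libraries were thus furthest apart, as a ratio, next to the start site and closest at the edge. The same shares in other promoters were 35.3%, 40.8% and 45.4% under 100 bp, so there the start site was less depleted.

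The slope was not symmetric. Between 750 and 1000 bp upstream 40.3%, 44.1% and 49.1% of the motifs were listed, and at the same distance downstream 23.3%, 28.5% and 34.7%. From 250 to under 500 bp the upstream shares were 11%, 16.7% and 22% and the downstream shares 3.94%, 10.8% and 13.7%. Next to the start site the sides were close, with 1.28%, 6.1% and 7.2% upstream and 1.24%, 7.08% and 7.44% downstream under 100 bp.

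**Figure D1:**
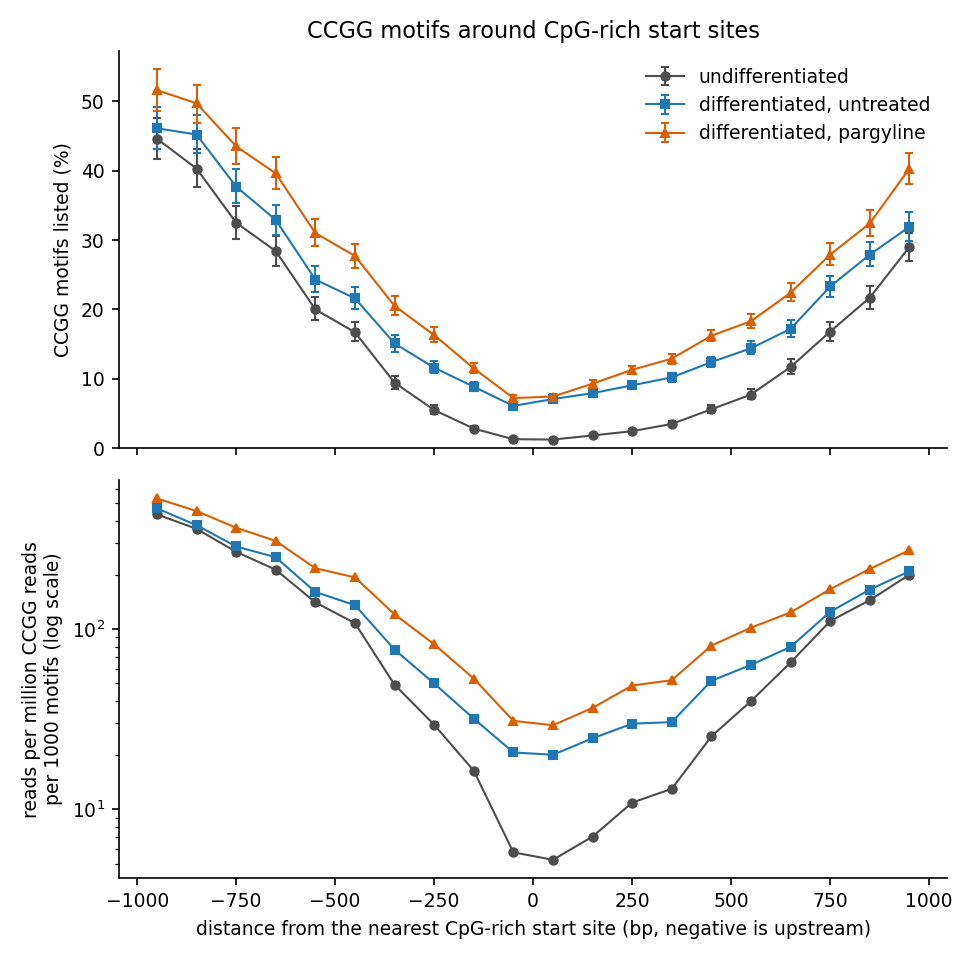
Share of CCGG motifs listed (top, %, with 95% Wilson intervals) and reads, scaled to 1000000 CCGG reads a library, per 1000 motifs (bottom, log scale) in 100 bp bins by signed distance from the nearest CpG-rich start site, for the 3 libraries. The undifferentiated library runs from 44.6% in the outermost upstream bin down to its lowest values at the start site, and both differentiated libraries lie above it in every bin.

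The differences changed with depth and with the listing minimum. When reads were drawn at random so that each library held as many CCGG reads as the pargyline library, the shares listed were 5.86%, 9.11% and 15.5%, and under 100 bp 0.949%, 4.03% and 7.33%. The gap between untreated and undifferentiated cells thus narrowed, and both gaps to the pargyline library widened. The thinned shares outside promoters were 57.2%, 55.6% and 59.5%, so at equal numbers of CCGG reads the pargyline library also listed more outside promoters. With at least 10 reads required, the shares under 100 bp were 0.34%, 1.87% and 1.8%, so that the differentiated libraries exchanged their order there while both stayed above the undifferentiated library.

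Within these promoters listing also differed with the CpG ratio around the motif itself. Near the start site the 500 bp around the motif overlap the window that chose the promoters, so ratio and distance went together. Where the 500 bp around the motif itself had a CpG ratio under 0.3, 62.5%, 63% and 65.6% of the motifs were listed, close to the level outside promoters. Between 0.6 and 0.75 the shares were 6.88%, 14.8% and 21.6%. In the most CpG-rich of 7 classes they were 0.84% (0.654 to 1.08), 4.38% (3.93 to 4.88) and 3.92% (3.5 to 4.4). The pargyline library was above the untreated library at ratios from 0.3 to 0.9 and had overlapping intervals with it above 0.9. Of the motifs under 250 bp from the start site, 5 had a ratio under 0.3. From 0.3 to 0.48 the shares there were 26.1%, 30.4% and 43.5% of 69 motifs, against 38.4%, 42.7% and 48.1% at all distances. From 0.6 to 0.75 they were 4.77%, 13.3% and 18.8%, and in the most CpG-rich class 0.541%, 4.07% and 3.55%.

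**Figure D2:**
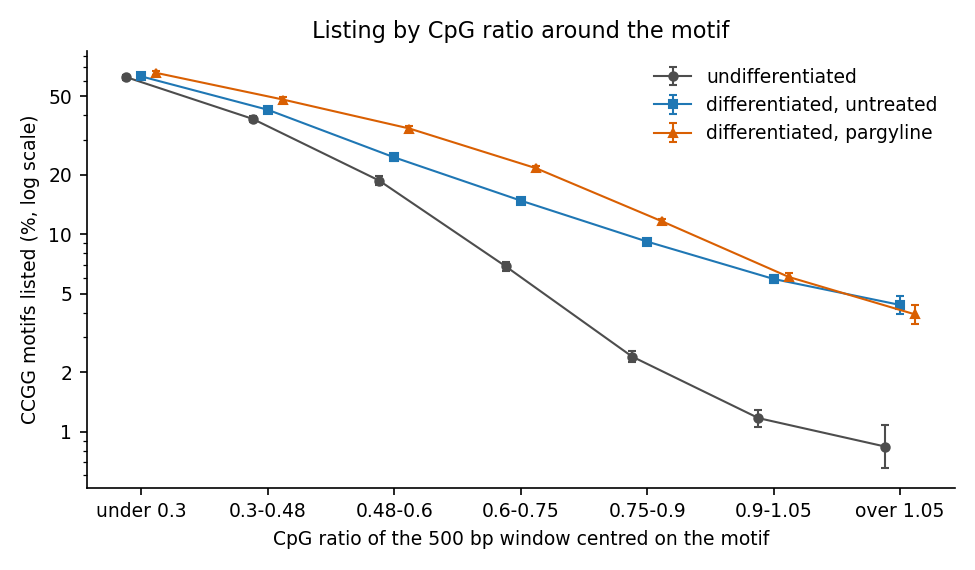
Share of CCGG motifs in CpG-rich promoters that were listed (%, log scale, with 95% Wilson intervals) against the CpG ratio of the 500 bp centred on the motif, for the 3 libraries. The undifferentiated library falls from 62.5% to 0.84%, and the differentiated libraries end at 4.38% and 3.92%.

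The number of CpGs in the 30 bases around the motif gave the same order. With the CpG of the motif as the sole CpG, 23.1%, 28.2% and 34.1% of the motifs were listed. With 6 or more CpGs the shares were 0.504%, 2.99% and 2.72%. Under 250 bp from a start site the shares were 4.85%, 12.9% and 18.2% with the sole CpG and 0.392%, 2.85% and 2.28% with 6 or more. By annotation, motifs in UTRs were listed least, at 2.12%, 7.51% and 8.86%, and 24039 of these 29166 motifs lay under 250 bp from a start site. Within that distance UTR motifs were at 1.14%, 6.46% and 7.18%, intron motifs at 1.76%, 7.22% and 9.34% and coding exon motifs at 2.71%, 10.6% and 11.9%.

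Most members were not listed in every library. All 3 libraries listed 5212 of the 23614 sites, or 22.1%, against 61.4% of listed sites in other promoters and 74.7% outside promoters. The pargyline library alone listed 7440 sites, the untreated differentiated library alone 4286 and both of these together 4169. The undifferentiated library alone listed 990. The sites seen in the pargyline library alone had a median of 7 reads and those of the untreated library alone 6, whereas the highest of the 3 counts had a median of 25 at the sites listed in all 3. Of all motifs in these promoters 52.6% lay under 250 bp from the start site. Of the sites listed in the untreated library alone 49.9% did, of those in the pargyline library alone 40.3%, and of those listed in all 3 libraries 12.1%.

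**Figure D3:**
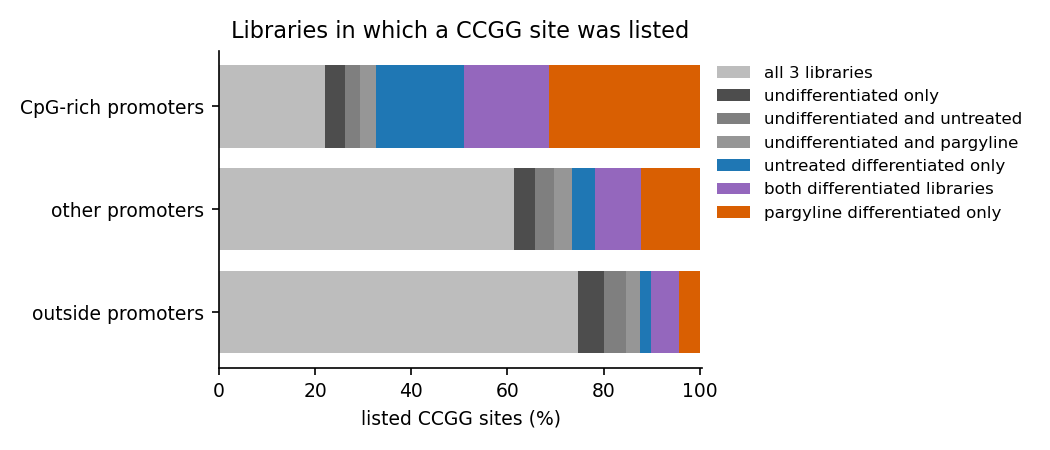
Listed CCGG sites (%) in CpG-rich promoters, other promoters and outside promoters, split by the libraries that listed them. Sites listed in all 3 libraries make up 22.1% of the bar for CpG-rich promoters and 74.7% of the bar outside promoters.

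From undifferentiated to untreated differentiated cells 8455 sites appeared, 7.95% of the motifs that had been absent, and 1795 disappeared, 23.3% of those that had been listed. Over all autosomal CCGG motifs these shares were 13% and 9.58%. In CpG-rich promoters 4.71 sites appeared for each that disappeared, against 1.79 in other promoters and 1.01 outside promoters. The sites that appeared had a median of 7 reads, and 231 of them had at least 20. In the pargyline library 11609 sites appeared (10.9% of the absent motifs, against 16.5% of all autosomal motifs) and 1702 disappeared (22%, against 11.5%), or 6.82 for each that disappeared. Both contrasts share the undifferentiated library. Between the differentiated libraries, 8245 sites were listed with pargyline and absent without it, 8.27% of the motifs absent without it, against 11.9% of all autosomal motifs. The reverse held for 4998 sites, 34.8% of those listed without it, against 8.7% of all.

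At the 5212 sites listed in all libraries the scaled reads could be compared without setting absent sites. The minimum of 5 reads is a different scaled level in each library, because 1 read is 0.0345, 0.03 and 0.0427 scaled reads. Its effect on the ratios was not tested. The median log2 ratio of untreated differentiated to undifferentiated was 0.12, against 0.09 outside promoters. That of pargyline-treated to undifferentiated was 0.44, against 0.08 outside promoters, and under 100 bp from the start site it was 0.60 over 212 sites. That of pargyline-treated to untreated was 0.27, against 0.00. The deposited RPM values, which are scaled to all mapped reads, lower every log2 value by 0.33 for untreated and by 0.71 for pargyline-treated against undifferentiated cells, which turns both medians against the undifferentiated library, and that between the differentiated libraries, below 0, while the gap to sites outside promoters stays.

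To compare genes, the reads of all member sites within 1 kb of a gene's CpG-rich start sites were summed. A gene was called higher or lower at a bounded difference of 2-fold in scaled reads, with every site absent from the lower library set to 4 reads and with at least 20 reads in the higher library. Folds given as "at least" rest on this setting of absent sites and leave out counting error. Between untreated differentiated and undifferentiated cells, 417 genes were higher, 10.6% of the 3928 genes that could be called, and 167 were lower, or 4.25%. Over genes with promoters of either kind the shares were 9.61% and 9.67%, and over other promoters alone 9.41% and 10.7%. With deposited RPM values the split was 199 higher and 293 lower. Between pargyline-treated and undifferentiated cells, 1372 of 4248 genes were higher (32.3%, all promoters 19.8%, other promoters 17.2%) and 126 lower (2.97%, all promoters 9.57%, other promoters 11%), and with RPM values 333 and 402. Between the differentiated libraries, 891 of 4686 genes were higher with pargyline (19%, all promoters 10.8%, other promoters 8.84%) and 74 lower (1.58%, all promoters 2.68%, other promoters 2.94%), and with RPM values 353 and 231. With RPM values the shares of genes called higher in the 3 comparisons were 5.07%, 7.84% and 7.53%. The direction of the balance against the undifferentiated library thus depended on the scale.

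Reads of single genes and sites below are counts as deposited, not scaled, while folds and ratios are of scaled reads. Among protein-coding genes, the promoters with most reads were deep in every library. Sfi1, which encodes a centrin-binding protein, had 2048, 2055 and 2201 reads over 4 sites, all under 250 bp from its start sites. Sept5, a septin gene, had 365, 570 and 482 reads with 21 of its 29 motifs listed. Cartpt, which encodes a neuropeptide precursor, had 250, 209 and 222 reads. Josd2, which encodes a deubiquitinase, had 298, 266 and 108 reads and was the member of this group called between libraries, lower with pargyline than in undifferentiated cells at a ratio of 0.448 (0.356 to 0.56). BC004004 had 251, 286 and 180 reads and Pstpip2 242, 229 and 187.

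Further promoters were listed at many motifs in every library. Cyp2r1, which encodes a vitamin D hydroxylase, had 11 motifs and each was listed in some library, with 141, 179 and 145 reads in all. Its 8 sites listed in every library included those at -45, -53, -96 and -149. Ptp4a3, a phosphatase gene, also had 8 sites listed in all 3 libraries, Aatk, a kinase gene, had 7 and Sept5 had 9. At the other end, Zbtb2 with 39 motifs, Mier3 with 38, Samd1 with 37 and Zfp800 with 35 had no listed site in any library, which allows at most 4 reads at each motif. In total 1656 genes with a CpG-rich start site had no listed site.

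Germline gene promoters were the most fully listed of the lists. Of 21 such genes with a CpG-rich start site, 20, 20 and 21 had a listed site, where 48.1%, 70.6% and 72.8% of all genes did, and 17, 18 and 17 had one under 250 bp from the start site, against 918, 3427 and 3683 of all 9724 genes. The share of their motifs listed was 42.6%, 53.2% and 56.3%, against 6.29%, 12.1% and 14.7% over all genes. The median reads per gene were 75, 96 and 80. Sycp1, a component of the synaptonemal complex, had 125, 240 and 172 reads. Its site at -96 had 54, 65 and 46 reads and the one at -18 had 7, 25 and 23. Untreated to undifferentiated, its ratio was 1.67 (1.34 to 2.09), short of the 2-fold rule. Tdrd1, which acts in the piRNA pathway, had 242, 286 and 223 reads and a ratio of 1.03 (0.862 to 1.22). D1Pas1, a testis RNA helicase gene, had 164, 321 and 168 reads, with 45, 90 and 30 at the coding site at 784. Majin, a meiotic telomere gene, had 185, 175 and 134 reads. No germline promoter was called lower in any comparison, and 0 of 20, 2 of 19 and 1 of 19 were called higher for untreated against undifferentiated, pargyline against undifferentiated and pargyline against untreated, where 10.6%, 32.3% and 19% of all genes were. With RPM values none was higher, and 1 was lower in each of the comparisons that hold the pargyline library.

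Imprinted genes whose control regions are methylated in the oocyte were also listed above all genes. Of 14, 11, 12 and 11 had a listed site, where 48.1%, 70.6% and 72.8% of all genes did. Of the list's motifs 23.8%, 31.3% and 33.3% were listed, against 6.29%, 12.1% and 14.7% over all genes. Plagl1, which encodes a zinc finger protein, had 208, 315 and 153 reads, of which 88, 184 and 84 came from the site at 353 and 12, 62 and 36 from the one at -19. Mest had 264, 237 and 152 reads, with 70, 92 and 55 at a UTR site at 21. Nnat, which encodes a membrane proteolipid of neurons, had 92, 137 and 117 reads at 4 sites, each listed in every library, and 55, 82 and 77 of these were at the site at 181. Inpp5f had 189, 288 and 170 reads. The 3 comparisons called 1 of 9, 1 of 11 and 1 of 11 genes higher, where 10.6%, 32.3% and 19% of all genes were, and none lower. With RPM values there were 0, 1 and 1 higher and 0, 1 and 0 lower.

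Sites under 250 bp from a start site with at least 10 reads in every library numbered 215 and belonged to 200 of the 9724 genes. Of these 200 genes 11 were among the 21 of the germline list and 4 among the 14 of the imprinted list. Of the other lists, 2 of 61 homeobox, 2 of 58 ribosomal protein, 1 of 17 Hox, 1 of 13 neural and 1 of 14 DNA methylation genes had such a site, and the 6 remaining lists had none.

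Homeobox genes outside the Hox clusters were listed more often with pargyline. Of 61 genes with a CpG-rich start site 31, 51 and 59 had a listed site, where 48.1%, 70.6% and 72.8% of all genes did. Of the list's motifs 6.36% (5.03 to 8.02), 13.9% (11.9 to 16.1) and 28.7% (26.1 to 31.6) were listed. The undifferentiated and untreated shares were close to those of all genes (6.29% and 12.1%), and the pargyline share was above the 14.7% of all genes. With pargyline 32 of 52 genes were called higher than in undifferentiated cells, where 32.3% of all genes were, and 29 of 53 higher than in untreated cells, where 19% of all genes were, and none was lower. With RPM values these counts were 8 and 14 (all genes 7.84% and 7.53%). With at least 10 reads a site they were 9 of 34, near the 21.2% of all genes, and 15 of 36 (all genes 14.9%), and with thinned counts 25 of 52 and 17 of 51 (all genes 28.5% and 14.1%). CCAGG motifs of the same promoters were listed at 37.3% (32.1 to 42.7) in the pargyline library, above the 22.1% of all CpG-rich promoters and against 5.41% in the undifferentiated library. Whether the CCGG difference is separate from the CCAGG difference was not tested.

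Single genes of this list differed. Pou4f3, a sensory neuron regulator, had 28, 68 and 161 reads and was at least 3.32-fold higher with pargyline than in undifferentiated cells. Nkx6-2, active in glia and neurons, had 111, 88 and 110 reads, and Irx4, a heart regulator, had 114, 96 and 87, without a call in any comparison. Lhx2, a forebrain and eye regulator, had 0, 10 and 34 reads at its single listed site.

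Hox genes, which pattern the body axis, had 13, 16 and 17 of 17 promoters with a listed site, where 48.1%, 70.6% and 72.8% of all genes did. Of the list's motifs 10.3%, 16% and 27% were listed, against 6.29%, 12.1% and 14.7% over all genes. With pargyline 5 of 13 were called higher than in undifferentiated cells, near the 32.3% of all genes, and 7 of 14 higher than in untreated cells, where 19% of all genes were. Under RPM values these counts were 2 and 4. Untreated against undifferentiated cells, none of 8 was called higher and 1 lower on either scale. Hoxa9 had 19, 42 and 78 reads, of which 10, 12 and 17 were at -123, and was at least 2.24-fold and 2.06-fold higher with pargyline in these comparisons. With RPM values these bounds were 1.37 and 1.58, short of a call. Hoxa6 had 161, 209 and 264 reads, Hoxc10 92, 131 and 145, and Hoxd1 55, 84 and 78. None of these 3 was called. CCAGG motifs at Hox promoters were listed at 9.28% in undifferentiated cells and at 34% with pargyline.

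Lineage genes gave similar orders. Of 13 neural promoters 7, 12 and 12 had a listed site, of 8 endoderm promoters 5, 7 and 8, and of 7 trophoblast promoters 4, 6 and 7, where 48.1%, 70.6% and 72.8% of all genes did. None of 5, 4 and 5 was called between untreated and undifferentiated cells, where 10.6% of all genes were higher and 4.25% lower, and 4, 3 and 3 were called higher with pargyline than in undifferentiated cells, of 9, 7 and 5 that could be called, where 32.3% of all genes were. With RPM values these counts were 2, 0 and 0. Gad1, which makes the neurotransmitter GABA, had 0, 8 and 67 reads, and its 6 listed sites were all listed with pargyline while 1 was listed without it. Neurog1, a proneural factor, had 99, 136 and 208 reads. Hes5, a target of Notch signalling, had 8, 63 and 50 reads and Neurod1, a neuronal differentiation factor, 23, 36 and 37, without a call. Gata2, of the trophoblast and blood lineages, had 66, 103 and 174 reads, and its sites at -178 and -257 had 29 and 11 reads with pargyline and were absent otherwise. Sox7 and Gata4, factors of the endoderm, had 65, 135 and 174 reads and 20, 40 and 66 reads. Dab2, an endocytic adaptor, was not called and had the most reads in undifferentiated cells, with 36, 24 and 28, and Prdm1, a transcriptional repressor, had 19, 28 and 33. Ascl2, a trophoblast factor, had 37, 57 and 75 reads without a call. Dlx3 had 51, 47 and 126 reads and Fgfr2, a receptor of fibroblast growth factors, had 15, 44 and 91. The CCAGG shares with pargyline were 31.4% in neural, 45.8% in endoderm and 30.2% in trophoblast promoters.

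Retinoic acid receptor and response genes had 9, 12 and 13 of 14 promoters with a listed site, against 48.1%, 70.6% and 72.8% of all genes. With pargyline 6 of 10 were called higher and 1 lower than in undifferentiated cells, where 32.3% and 2.97% of all genes were, and with RPM values 0 and 1. Between untreated and undifferentiated cells 2 of 7 were higher (all genes 10.6%), and between the differentiated libraries 4 of 10 were higher with pargyline (all genes 19%) and 1 lower (all genes 1.58%). With RPM values these were 1 higher and 1 lower, and 0 higher and 1 lower. With at least 10 reads a site, 1 of 7 was higher with pargyline than in undifferentiated cells and 1 of 8 than in untreated cells (all genes 21.2% and 14.9%). With thinned counts these were 4 of 10 and 1 of 10 (all genes 28.5% and 14.1%). CCAGG motifs of these promoters were listed at 13.3% in undifferentiated cells and at 30.7% with pargyline. Aldh1a2, which makes retinoic acid, had 14, 42 and 89 reads. Rxra had 56, 44 and 88 reads and Rxrb, a second retinoid X receptor, 29, 69 and 37.

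**Figure D4:**
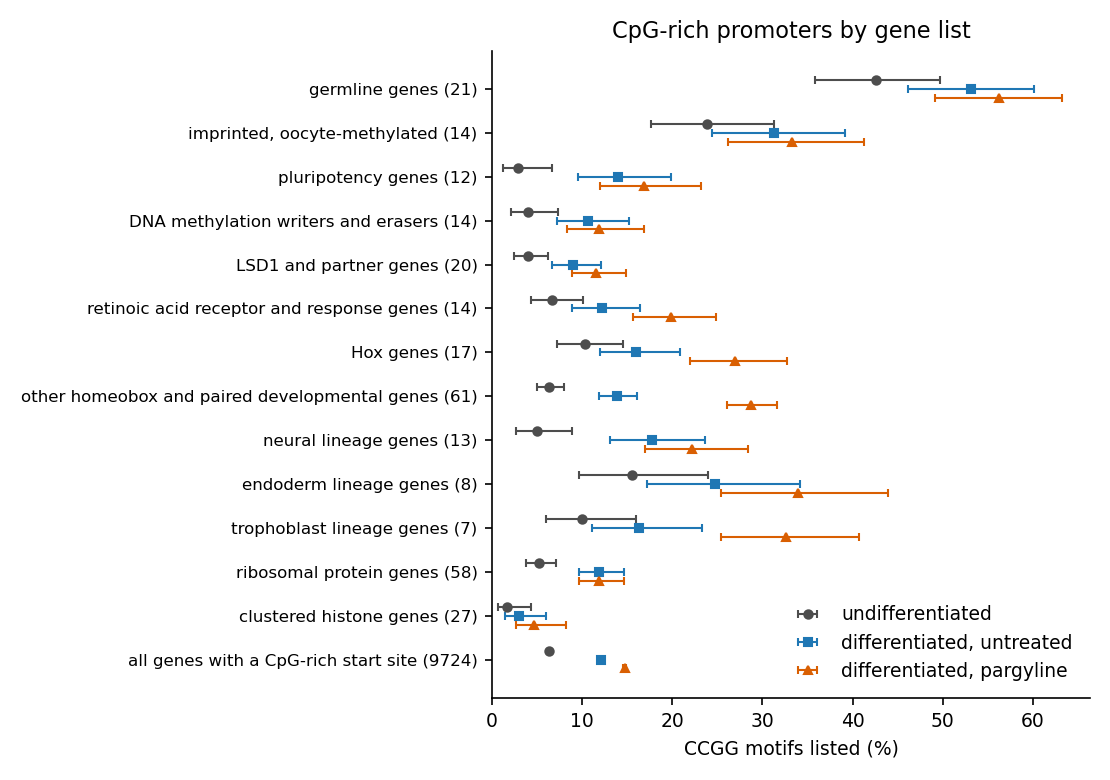
Share of CCGG motifs listed (%, with 95% Wilson intervals) in the CpG-rich promoters of each gene list, with the number of genes in brackets, for the 3 libraries. Germline genes lie at 42.6% to 56.3%, all genes at 6.29% to 14.7%, and homeobox genes outside the Hox clusters at 28.7% with pargyline against 13.9% in untreated differentiated cells.

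Pluripotency genes, which hold the undifferentiated state, were listed at shares whose intervals held those of all genes. Of 12 promoters 4, 9 and 12 had a listed site, where 48.1%, 70.6% and 72.8% of all genes did. Of the list's motifs 2.91% (1.25 to 6.62), 14% (9.56 to 19.9) and 16.9% (12 to 23.2) were listed, against 6.29%, 12.1% and 14.7% of all genes. Untreated cells were called higher than undifferentiated cells at 3 of 5 promoters (all genes 10.6%) and pargyline-treated cells at 2 of 4 (all genes 32.3%). With at least 10 reads a site these were 0 of 3 and 1 of 3, with 1 lower in each, and under RPM values at 0 and 1, with 1 lower in each. Fgf4, a growth factor made by ESCs, had 0, 53 and 59 reads. Its sites at 682, 864 and 905 had 13, 15 and 25 reads in untreated cells and 13, 17 and 16 with pargyline, and all were absent in undifferentiated cells. Klf2, a naive pluripotency factor, had 5, 49 and 13 reads, and Fbxo15 42, 30 and 12.

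The genes Sall4, Sox2, Esrrb and Trim28 showed different patterns. Sall4, a zinc finger factor, had 0, 28 and 18 reads, with 15 and 12 of those of the differentiated libraries at -20 in its UTR, and was at least 2.03-fold higher in untreated than in undifferentiated cells, a value that fell to 1.61 with RPM values and 1.44 with at least 10 reads. Esrrb, an orphan nuclear receptor, had 17, 22 and 66 reads and was at least 2.24-fold higher with pargyline than without, or 1.72-fold with RPM values and 1.86-fold with at least 10 reads. Sox2 had 0, 0 and 12 reads over 2 coding sites and Trim28, a corepressor, 0, 0 and 8 at 1 site, both under the 20 reads that a call needs. Lefty1 and Lefty2 had no CpG-rich start site.

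Genes of the methylation and LSD1 machinery had 3.96%, 10.6% and 11.9% of their motifs listed for the first list and 3.93%, 9.01% and 11.5% for the second. The intervals of the first list held the values of all genes in each library. Those of the second held the value of all genes with pargyline (8.87 to 14.9) and lay under or at it in undifferentiated (2.47 to 6.2) and untreated cells (6.66 to 12.1). Of 14 DNA methylation writers and erasers 6, 11 and 10 had a listed site, and of 20 LSD1 and partner genes 10, 18 and 17. Of all genes 48.1%, 70.6% and 72.8% did. Called higher were 1 of 7, 2 of 8 and 3 of 8 genes of the first list and 0 of 6, 4 of 9 and 1 of 11 of the second in the 3 comparisons, where 10.6%, 32.3% and 19% of all genes were, and none was lower. With RPM values the counts of higher genes were 1, 1 and 0 and 0, 0 and 0, and 1 of the second list was lower in each comparison with pargyline. Mbd1, which binds methylated DNA, had 100, 135 and 76 reads, Gadd45a 25, 56 and 37, and Gadd45b 34, 27 and 20. Uhrf2, a reader of modified cytosine, had 22, 27 and 50 reads. Among LSD1 partners, Mta1 had 22, 58 and 66 reads and Mta2 had 62, 83 and 28, both subunits of the NuRD complex. Gatad2a, another subunit, had 11, 15 and 41 reads. Snai1, which recruits LSD1, had 21, 49 and 65 reads and was at least 3.22-fold higher with pargyline than in undifferentiated cells, or 1.97-fold with RPM values.

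Clustered histone genes were listed less than all genes, and ribosomal protein genes were close to all genes in the undifferentiated and untreated libraries. Of all genes 48.1%, 70.6% and 72.8% had a listed site. Histone genes had 4, 6 and 7 of 27 promoters with a listed site and 1.69%, 2.97% and 4.66% of their motifs listed. Only 2 of them could be called with pargyline, and 1 was higher on either scale, the gene Hist1h4c with 10, 16 and 39 reads. The others were low, with Hist2h2ac at 9, 19 and 21, Hist1h4f at 10, 7 and 0 and Hist1h2ak at 0, 0 and 16. Ribosomal protein genes had 24, 35 and 38 of 58 promoters with a listed site and 5.18%, 11.9% and 11.9% of their motifs listed, against 6.29%, 12.1% and 14.7% of all genes. Higher were 3 of 20, 6 of 17 and 3 of 20 and lower 1, 0 and 1 in the 3 comparisons, where 10.6%, 32.3% and 19% of all genes were higher, and with RPM values 2, 0 and 2 were higher and 1, 2 and 4 lower. Rpl10l, which is also a germline gene, had 75, 97 and 69 reads, and Rpl10a had 45, 85 and 83.

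The largest bounded differences rested mostly on single sites 500 bp or more from the start site. Nucks1, which encodes a nuclear phosphoprotein, had 0, 39 and 42 reads at -964 and was at least 8.47-fold higher in untreated and at least 13-fold higher in pargyline-treated than in undifferentiated cells. These bounds rest on the 4 reads set for the absent site, and with at least 10 reads required they were 3.75-fold and 5.87-fold. Alpl, the tissue-nonspecific alkaline phosphatase and a stem cell marker, had 0, 43 and 24 reads at -497, a difference of at least 9.34-fold in untreated cells. Ramac, which encodes an activator of the RNA cap methyltransferase, had 0, 89 and 67 reads, mostly at neighbouring motifs at -161 and -144 that can share a fragment. Otud1 had 0, 30 and 11 reads, Wrn 0, 29 and 13 and Kri1 0, 28 and 23.

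Reads were lower after differentiation in other promoters, each with 1 listed site except Tmem170b. Tmem41a, which encodes a membrane protein, had 52, 0 and 0 reads at -602, at least 15.0-fold lower in untreated and at least 10.5-fold lower in pargyline-treated cells. Usp33, a deubiquitinase gene, had 61, 8 and 11 reads at -823, a ratio of 0.114 (0.0471 to 0.239) for untreated to undifferentiated cells. Tmem39b had 26, 0 and 0 reads. Nfx1 had 33, 0 and 14, Dtnbp1 27, 0 and 12 and Tmem170b 49, 0 and 21, so that these 3 were listed with pargyline but not in untreated cells. The Tmem170b site at 830 had 49, 0 and 6 reads, and its other site, at 106, had 15 with pargyline alone. Dnm1l, which encodes the GTPase of mitochondrial fission, had 51, 14 and 0 reads, Txnrd1, a thioredoxin reductase, 51, 21 and 0, Sin3b 31, 21 and 0 and Mettl13 36, 10 and 5.

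Reads were highest with pargyline at a further set. Ganab, a glucosidase of the endoplasmic reticulum, had 5, 22 and 83 reads, of which 77 of the last were at -872, at least 11.4-fold above undifferentiated cells. Tvp23b had 7, 27 and 60 reads, Baiap2l1 0, 15 and 38 and Chaf1a, a histone chaperone, 0, 23 and 34. Against untreated cells, Sfmbt2, a Polycomb-related gene, had 0, 0 and 24 reads at -890 and was at least 8.54-fold higher. Ect2, a regulator of cytokinesis, had 0, 0 and 40 reads over sites at -117 and -156. Ddr1, a collagen receptor, had 19, 5 and 82 reads, Tspan12 0, 0 and 37, Tspan33 6, 0 and 21 and Naglu 6, 5 and 23.

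In all, 74 genes were lower with pargyline than without. Tmsb10, which encodes an actin-binding thymosin, had 17, 38 and 6 reads at 1 site at -131, a ratio of 0.225 (0.0777 to 0.536) for pargyline-treated to untreated cells. Anapc15, of the anaphase-promoting complex, had 37, 83 and 14 reads and Slc25a25 15, 31 and 5. Nrm, a nuclear envelope gene, had 0, 25 and 0 reads, Rnaseh1 12, 22 and 0 and 1700123O20Rik 6, 21 and 0. With at least 10 reads required, the bounded differences of these last 3 fell below 2-fold, and with thinned counts they had too few reads for a call.

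**Figure D5:**
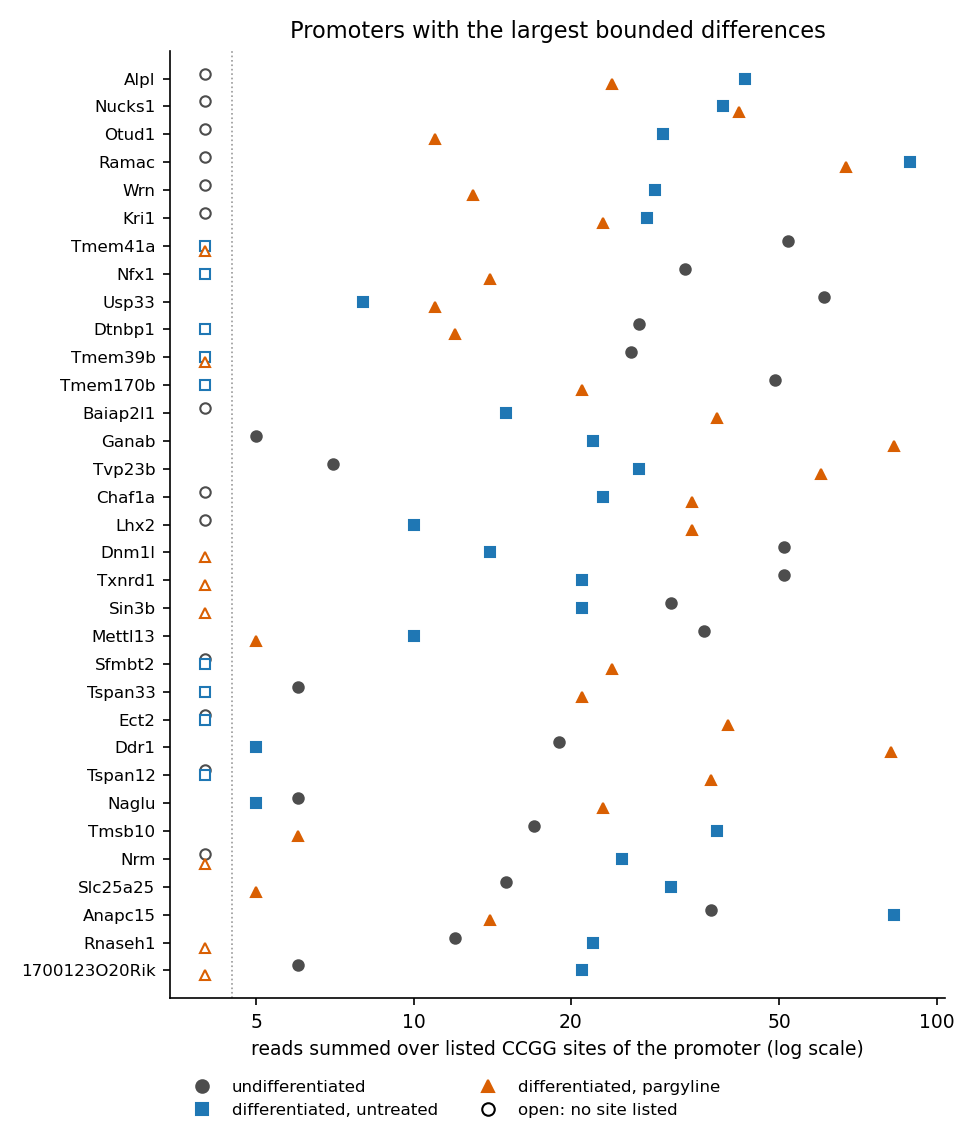
Reads summed over the listed CCGG sites of each promoter (log scale, not scaled for depth) in the 3 libraries, for genes with the largest bounded differences, grouped by comparison from top to bottom. Open symbols left of the dotted line stand for promoters with no listed site in that library, as at Tmem41a, with 52 reads in undifferentiated cells and none listed after differentiation.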

How the data were processed

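The members and gene lists were chosen with earlier results of these data known. MethylRAD libraries were sequenced from 1 sample a condition. Per the study's methods, the authors trimmed the reads, kept those with an FspEI site and mapped them uniquely to GRCm38 with at most 1 mismatch. The submitters' processing notes name Bowtie2 2.3.3 and FastQC 0.11.3. The authors deposited raw read counts and RPM, scaled to all mapped reads, for every site with at least 5 reads. Here the counts were used, scaled to 1000000 autosomal CCGG reads a library without sites over 10000 reads, and RPM served as an alternative.

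Motifs were located in the GRCm38 reference and start sites were taken from GENCODE M21 basic transcripts of the 19 autosomes. The 500 bp window was centred on the start site, and 15494 of 72109 start positions passed. The reference is C57BL/6J, so a motif that the line's own strain lacks counts as absent. Sites unchanged from the motif (type M) were kept. A site within 1 kb of several genes counts for each, which holds for 13.7% of members. Another CCGG lay within 32 bp of 37.5% of members, so 1 fragment can add to several sites. Python 3.11.15, numpy 2.4.6, pandas 2.3.3 and SciPy 1.17.1 were used. Window composition, motif search, coverage of the Wilson intervals and a plain 2-fold ratio of counts were tested on simulated data. The setting of absent sites, scaling, thinning and the assignment of sites to genes were not part of that test.

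With 1 library a condition no test was made. A gene could be called where its reads reached 20 in the higher library. Named were protein-coding genes with most reads (8), with the largest bounded difference in each direction of each comparison (6), with most sites in all libraries (4) or most motifs and none listed (4), and from each of 13 lists the 4 with most reads, plus Lefty1, Lefty2, Sox2, Trim28, Esrrb and Sall4. Sequences show the deepest site of such genes, with 16 chosen and none from chromosome 18. Alternatives were other minimums, thinning, distances, windows, start sites and scales. Of the genes this rule names, 5 are not reported here.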

Additional observations from a re-analysis of the deposited data

Results flagged for a closer look

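CCAGG motifs are outside the main measurement. In CpG-rich promoters the pargyline library listed 22.1% of them (21.7 to 22.5), above the 5.05% of the undifferentiated library, and over all autosomes 24% against 7.25%. By list the pargyline share ran from 5.81% in clustered histone and 8.09% in ribosomal protein promoters to 42.3% in germline and 45.8% in endoderm promoters. The counts of the undifferentiated and untreated differentiated libraries were equal at all 2037 shared CCAGG sites, and the CCAGG values of these libraries cannot be told apart.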

How the results depend on the processing

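No paired analysis was possible because each condition was 1 library. No named difference changed direction where it could be computed. RPM scaling turned the balance of higher to lower genes against the undifferentiated library and the medians at shared sites below 0, and with at least 10 reads the differentiated libraries exchanged their order under 100 bp from the start site. The shares listed (undifferentiated, untreated, pargyline) were 3.74%, 5.69% and 6.6% with at least 10 reads, 3.22%, 9.19% and 11.4% within 500 bp, 2.0%, 7.92% and 9.51% with the window centred on the motif, 5.56%, 10.9% and 13.1% at a CpG ratio over 0.85 and GC over 60%, 6.52%, 12.4% and 15.1% with protein-coding start sites, 11.4%, 17.3% and 20.5% without a neighbouring CCGG and 6.92%, 12.9% and 15.7% at motifs with unique sequence. Thinning gave 5.86% and 9.11% for the first 2. Rows with a changed motif were added as planned and kept all 3 shares. The order of the libraries in these shares was the same throughout.

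Genes called higher in untreated cells numbered 259 with thinning, 240 at the stricter CpG ratio, 199 with RPM and 106 at 3-fold, and lower 58 within 500 bp, 17 with motif windows, 92, 293 and 67 at the stricter ratio, RPM and 3-fold. Genes higher with pargyline than in undifferentiated cells numbered 687 with at least 10 reads, 909 with motif windows, 778, 333 and 452 in the last 3 settings, and lower 37 within 500 bp, 12 with motif windows, 66, 402 and 46. Genes higher with pargyline than without numbered 522 with at least 10 reads, 569 with motif windows, 493, 353 and 203, and lower 42 within 500 bp, 39, 231 and 12. The causes were not tested, apart from fewer sites or reads by construction.

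Of 36 named differences, 33 with at least 10 reads and 10 of the 12 with a site within 500 bp stayed at 2-fold or more. With at least 10 reads the values fell by construction, because an absent site may then hold more reads, as at Tmem41a in untreated cells, from 15.0 to 6.67, and Alpl, from 9.34 to 4.14. Within 500 bp Ddr1 fell from 6.87 to 3.38. Nrm fell to 1.91, Rnaseh1 to 1.68 and 1700123O20Rik to 1.61 with at least 10 reads, and within 500 bp Ganab fell to 1.86 and Tmem170b had no site left in undifferentiated cells. The alternatives for named genes at 10 reads and with thinning, for gene lists, without the chromosome 17 cluster and by class were chosen after seeing the data. A median of 8 to 11 reads a site limits what single sites can show.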
